A study of Mustela putorius furo with 7 samples.

Results

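The 1000 regions whose chromatin accessibility differed most among wild-type (WT) ferret pancreatic ductal epithelial (PDE) cultures were described. They were taken from the 95129 regions of a bulk ATAC-seq matrix, an assay that reads open DNA from where a transposase can insert sequencing adapters. Signal was taken as log2(signal + 1), and 38481 regions with a mean of 5 or more over the 7 libraries, about 31 on the signal scale, were ranked by their SD over the 4 WT libraries. The values of the WT libraries therefore chose the members, and every statement on how much the WT libraries differed is a description without a test.

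The libraries came from 4 WT cultures and 3 CF cultures, in which both copies of CFTR were knocked out (genotype CFTR KO/KO). CFTR is a chloride and bicarbonate channel of ductal epithelia. All cultures began from pancreata of ferrets aged 1 to 3 days, went through 10 passages intended to remove other cells, and were polarized for 14 days at an air-liquid interface (ALI) before about 50000 cells per culture were used. Long passage limits these cultures as a model of the duct in the animal, and neither sex nor litter is given in the labels. The labels number a separate donor for each library, whereas the methods of the study give equal numbers of donors for both genotypes. It therefore remains unclear whether the 4 WT libraries are 4 independent animals, and a p-value here speaks only of the spread over these 7 libraries.

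Open chromatin marks promoters and distal elements such as enhancers, where transcription factors and the transcription machinery reach the DNA. Promoters of widely used genes tend to be open in most cell types, whereas distal elements vary more between cell types, developmental states and individuals. In bulk ATAC-seq, a lower signal can come from fewer cells with an open site or from less opening per cell, and these cannot be told apart. The matrix pairs no region with a gene, and the ferret annotation at hand was of another assembly, so regions are given by position in MusPutFur1.0 and the ductal label could not be checked against marker genes.

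The libraries differed in depth along with genotype. WT libraries held 3226534 to 8172005 reads in regions and CF libraries 8469877 to 11047724, and the shallowest was matrix column WT3. The lowest value of every library was worth 1 read, so 0 reads and 1 read look the same in the matrix. The replicate numbers of the matrix columns also disagreed with those of the peak lists, which is described further for the members. Libraries are therefore named by matrix column for signal and by list for peaks, and which numbering is right was not tested.

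The members had a WT SD of 1.10 to 2.31 on the log2 scale, with a median of 1.27, against a median of 0.41 in the 37481 other regions with a mean of 5 or more. At the limit the order was close to arbitrary, since the last 2 members, GL896970:988902-989531 and GL897093:749857-750933, and the first 2 regions left out, AEYP01112117:3-309 and GL896899:36542783-36543523, all had an SD of 1.10. The SD that counting error alone would give, from the reads expected at a common WT level, had a median of 0.29 in members and 0.21 in other regions. In 999 of 1000 members the observed SD was more than 2 times that counting SD. The members were chosen for a high SD, so this count follows largely from the choice. The part of counting error in the spread was not tested.

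The same regions varied far less among CF cultures. The SD over the 3 CF libraries had a median of 0.27 in members and 0.24 in other regions. The highest CF SD of any member was 0.98, so 0 of 1000 members reached in CF the limit of 1.10 that chose them in WT, and 38 of the 38481 regions did. The comparison is of 3 deeper libraries with 4 shallower ones, and the WT side was chosen for its spread.

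**Figure D1:**
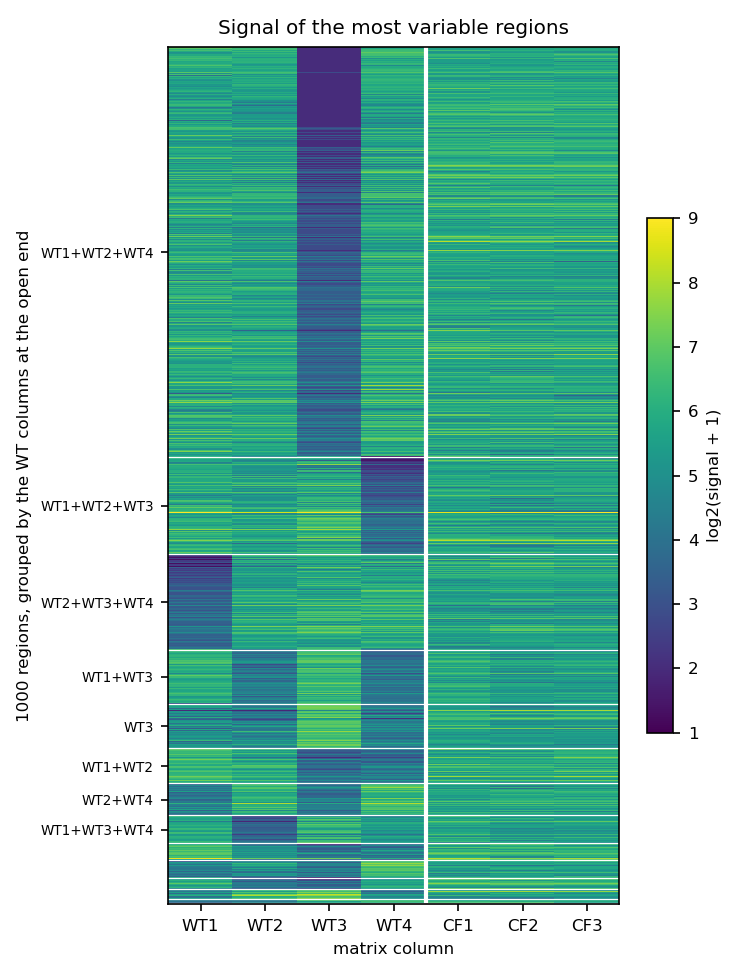
Signal of the 1000 members, one per row, as log2(signal + 1), in the 4 WT and 3 CF matrix columns; rows are grouped by the WT columns at the open end, and larger groups are labelled. The dark block in column WT3 is the group of 478 members in which WT3 alone was low, while the 3 CF columns are alike from row to row.

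To describe the patterns, the 4 WT values of each member were split at their largest gap into an open set and a closed set. The median distance between the means of both sets was 2.34 on the log2 scale, and the gap took a median of 65.7% of the WT range. All 14 possible patterns occurred. In 736 members 3 libraries were open and 1 was closed, in 171 members 2 were open, and in 93 members 1 was open. Of the other regions that passed the limit on the mean, 40.4% had 3 libraries open, 26.9% had 2 and 32.7% had 1. Low signal in a single WT culture was thus the most frequent split in both sets, and more so in members. A limit on the mean leaves less room for regions with only 1 open library. Its part in the split of members was not tested.

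One pattern alone, with WT1, WT2 and WT4 open and WT3 closed, held 478 members. WT4 was closed alone in 114 members, WT1 in 111 and WT2 in 33. Of the patterns with 2 open libraries, WT1 with WT3 was the most frequent with 63 members, followed by WT1 with WT2 in 41 and WT2 with WT4 in 37, while WT3 with WT4 was open in only 5. WT3 was the lone open library in 52 members, WT1 and WT4 in 20 each and WT2 in 1. WT3 was the lowest WT library in 557 members, against 211 for WT4, 156 for WT1 and 76 for WT2. It was the highest in 238 members, fewer than WT1 with 318 or WT4 with 297. In the other regions with a mean of 5 or more WT3 was the lowest in 24.8%. It was the highest there in 38.0%, against 19.8% for WT1, 18.7% for WT2 and 23.4% for WT4.

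In the 478 members closed in WT3 alone, WT3 held a median of 3 reads (interquartile range 1 to 3, highest 11). The mean signal of the other WT libraries, scaled to WT3, gave a median of 18.1 expected reads (interquartile range 14.7 to 22.7). WT3 was at the floor of 1 read in 140 of them. In the members closed in another library alone the same comparison gave 6 against 38.3 reads for WT1, 12 against 62.4 for WT2 and 6 against 35.1 for WT4. WT3 was at 1 read in 147 members in all, WT1 and WT4 in 5 each, and WT2 and the CF libraries in 0.

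Depth moved with this pattern, since the library that was closed most often was the shallowest. Members took 0.39% of the reads of WT3, against 0.60% to 0.74% in the other WT libraries and 0.96% to 0.98% in CF. Without WT3, 407 of the 1000 members stayed in a list of 1000 built on the other WT libraries. The regions were also ranked by the variance left after counting error was subtracted. That kept 971 members, and 486 regions of that list were closed in WT3 alone. The counting SD of members was small beside the SD that chose them, with medians of 0.29 and 1.27. The list could therefore hardly change, and the part of depth in the pattern was not tested.

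**Figure D2:**
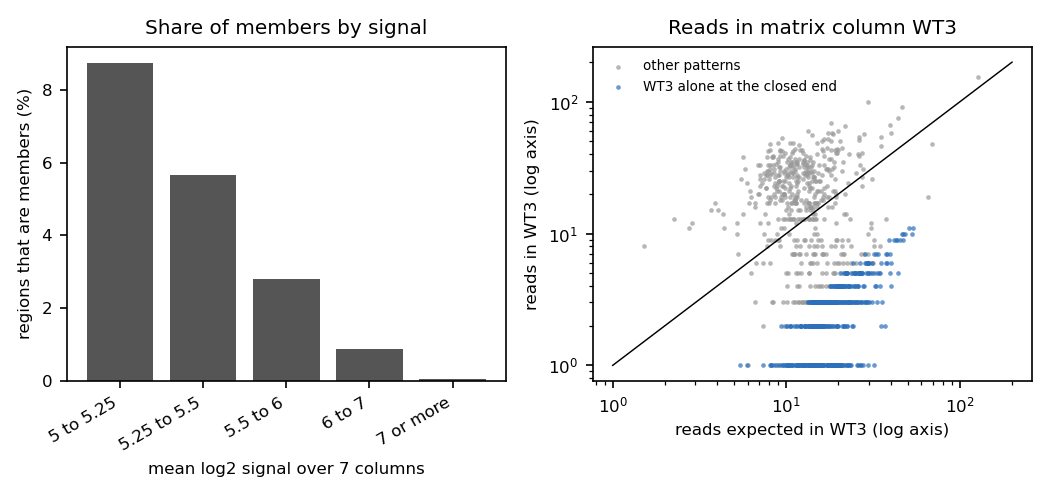
Left, the share of regions that are members (%) in each band of mean log2 signal, which falls from 8.75% in the lowest band to 0.03% in the highest. Right, on log axes, reads of each member in matrix column WT3 against the reads expected from the other WT columns, with the line of equality; blue points are the 478 members closed in WT3 alone, none above 11 reads.

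The members lay near the lower limit on signal. Of regions with a mean log2 signal from 5 to 5.25, 8.75% were members, and the share was 5.65% from 5.25 to 5.5, 2.79% from 5.5 to 6, 0.86% from 6 to 7, and 0.03%, 3 of 10305 regions, from 7 upwards. In all, 688 members had a mean under 5.5. Their median width was 737.5 bp against 809 bp in other regions, but within each of these bands the members were the wider, for example 700 against 628 bp in the lowest band. The distance to the nearest region was similar, with a median of 4.59 kb for members and 4.49 kb for other regions.

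The 10 members with the highest SD show the patterns in single regions. GL896934:6126203-6126881 ranked first, with signals of 63.1 in WT1, 79.9 in WT2, 3.08 in WT3 and 151 in WT4, and of 70.6, 69.4 and 91.0 in CF1 to CF3. WT3 stood there at 1 read, below every other library, while the CF libraries lay among the remaining WT values. A further 6 of the 10, on GL896918, GL896933, GL896947, GL896901, GL896920 and GL897039, also had WT3 alone closed, at 1 read. The place of the CF libraries differed among them. In GL897039:4771666-4772659 the CF signals of 36.1, 45.5 and 32.6 were below the 60.2, 86.2 and 90.5 of WT1, WT2 and WT4. In GL896901:27688597-27689294 the CF signals of 47.8, 50.7 and 62.4 were likewise below the 73.4, 90.6 and 82.1 of these WT libraries.

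Different libraries were low in the other 3 of the 10. GL896960:8588876-8589677 had signals of 1.47 in WT1, 23.1 in WT2, 55.4 in WT3 and 78.8 in WT4, and of 51.8, 71.6 and 53.9 in CF1 to CF3. WT1 was at 1 read there, and the CF libraries lay near WT3. AEYP01116186:1-1084, at the start of its scaffold, had 61.6, 23.1, 58.4 and 1.68 in WT1 to WT4 and 120, 64.2 and 82.6 in CF. Here WT4 was at 1 read and all CF libraries exceeded all WT libraries. GL896925:14815721-14816519 was low in WT1, at 4.40, against 90.6, 126 and 83.8 in WT2 to WT4 and 47.8, 62.7 and 45.5 in CF.

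The less frequent patterns also had clear examples, each the member with the highest SD of its pattern. GL897105:457526-458717 was closed in WT2, at 3.55, with 66.0, 52.3 and 30.2 in WT1, WT3 and WT4, and CF signals of 170, 192 and 177 above them all. GL896966:2739569-2740075 was open in WT4 alone, at 196, with 29.3, 62.2 and 18.5 in WT1 to WT3. The CF signals of 29.8, 20.1 and 21.9 sat with the closed WT libraries in that region. GL897486:16338-16863 was open in WT3 alone, at 117, with 7.34, 27.5 and 16.8 in the other WT libraries, and CF signals of 68.2, 43.3 and 64.6 lay between both sides.

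**Figure D3:**
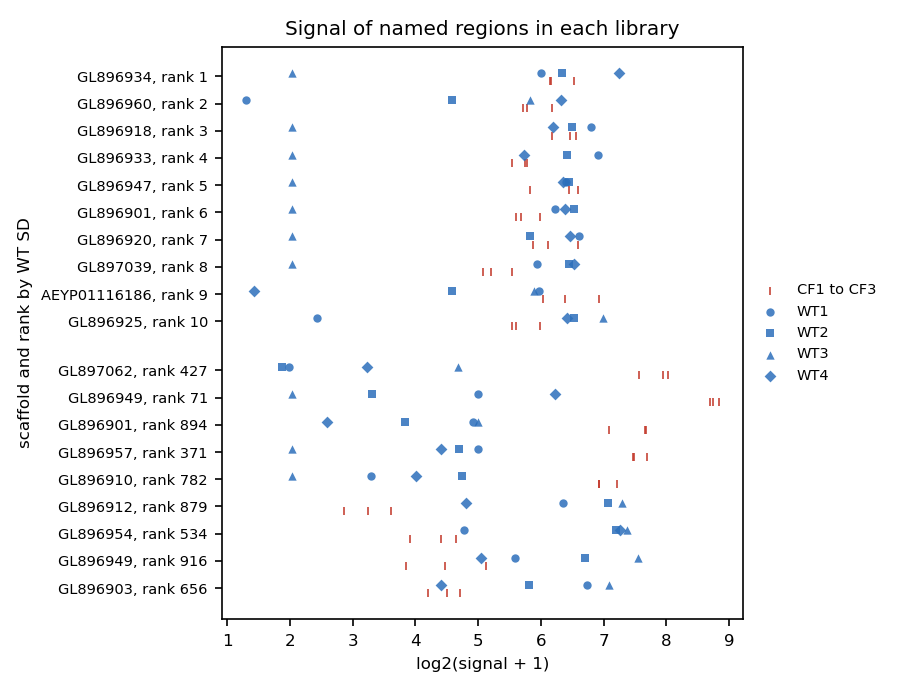
Signal, as log2(signal + 1), of the 10 members with the highest WT SD (top) and of 9 members called between genotypes (bottom, 5 more and 4 less accessible in CF), labelled by scaffold and rank; blue symbols are WT columns and red strokes the 3 CF columns. In the 10 upper rows a single blue symbol, most often WT3, lies far to the left of the rest, and in the lower rows the CF strokes lie to the right of all WT symbols in 5 members and toward the left in 4.

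Next, the CF libraries were placed between the closed and the open WT libraries of each member. A position of 0 stands for the mean log2 signal of the closed set and 1 for that of the open set, and a library above 0.5 was placed at the open end. All 3 CF libraries were at the open end in 790 members (79%), all 3 at the closed end in 72 (7.2%), and they fell on both sides in 138. The median position was 0.92. The same split in the other regions with a mean of 5 or more put CF at the open end in 27.5% and at the closed end in 41.1%.

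The place of CF went with the number of open WT libraries. With 3 open, CF was at the open end in 87.4% of 736 members and at the closed end in 3.4%, with a median position of 0.98. With 2 open, the shares were 69.0% and 11.1% of 171 members, with a median position of 0.78. With 1 open, they were 31.2% and 30.1% of 93 members, with a median position of 0.46. In the other regions the shares at the open end also fell, from 39.5% with 3 open to 25.5% with 2 and 14.4% with 1, while those at the closed end rose from 28.5% to 39.3% and 58.2%.

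The most frequent pattern was among those where CF was most often open. Of the 478 members closed in WT3 alone, CF was at the open end in 434 and at the closed end in 11, with a median position of 1.02, and the share at the open end, 90.8%, was the highest among the patterns with 3 open libraries. Of the other 522 members, CF was at the open end in 356 (68.2%). In the 407 members that stayed without WT3, it was at the open end in 304 (74.7%) and at the closed end in 32 (7.86%). The CF libraries were most often at the closed end where WT3 was open alone, with 20 of 52 members closed and 8 open, and where WT2 and WT3 were open, with 7 of 12 closed and 3 open.

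**Figure D4:**
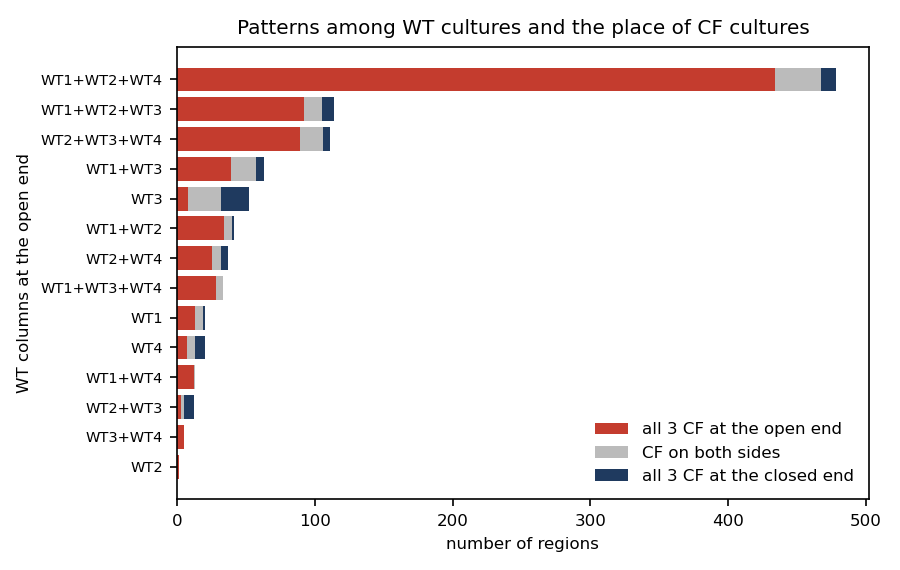
Number of members in each of the 14 patterns of open WT columns, split by whether all 3 CF libraries were at the open end (red), all at the closed end (dark blue) or on both sides (grey). The longest bar, WT1, WT2 and WT4 open, holds 478 members with CF open in 434, and dark blue is widest where WT3 was open alone, with 20 members.

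The limit on the mean took part in this result, because the mean ran over all 7 libraries, CF included. In 410 members the mean over the WT libraries was under 5, so that they passed only through the CF libraries, and of these 392 had CF at the open end and 1 at the closed end. In the 590 members with a WT mean of 5 or more, CF was at the open end in 398 (67.5%) and at the closed end in 71 (12.0%). When the limit was set on the WT mean alone, the new list of 1000 regions had CF at the open end in 495 and at the closed end in 269. The open end was still the more frequent in that list, by a smaller margin. The shares in other regions under that limit were not computed.

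CF signals were usually inside the range of the WT libraries. In 645 members all 3 CF libraries lay within that range. In 169 members (16.9%) they lay above all WT libraries, beside 11.5% of all 95129 regions and 8.12% of those with a mean of 5 or more, and in 4 members (0.4%) they lay below, beside 12.8% and 17.7%. A wide WT range leaves less room outside it, and the WT range chose the members, so nothing is read from these shares.

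CF and WT were compared for every region with limma, and a region was called where the adjusted p was under 0.05 and the log2 fold change beyond 1 in size. Of the members 107 (10.7%) were called more accessible in CF, beside 4.31% of all regions and 3.04% of regions with a mean of 5 or more. Only 4 members (0.4%) were called less accessible, beside 6.26% and 8.17%. The counts moved with the scaling and the tool, as did those over all regions, which were 4102 more and 5954 less accessible here. Scaling by library size gave 200 more and 2 less accessible members, beside 7726 and 3443 over all regions. The members numbered 219 and 33 with arrayWeights (all regions 7424 and 8536) and 121 and 21 with DESeq2 (5141 and 8142). With edgeR they numbered 131 and 23 (5143 and 6948). The median log2 fold change was 0.58 in members, 0.03 in all regions and −0.10 in regions with a mean of 5 or more. The WT values that chose the members enter this contrast, so the counts are a description.

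The imbalance between both directions turned with the limit on the mean. Of the 107 members called more accessible, 91 had a WT mean under 5, and 16 had a WT mean of 5 or more beside 4 called less accessible. In the list built with the limit on the WT mean alone, 20 regions were called more accessible and 78 less, where among all 40373 regions with such a WT mean 616 were called more and 4977 less accessible. Leaving out a CF library lowered the 107 calls to 51 without CF1, 49 without CF2 and 54 without CF3, as calls over all regions fell from 4102 to between 1365 and 1472. The 4 calls became 15 without WT1, 42 without WT3, 19 without WT4, and 2 without CF1, CF2 or WT2. Over all regions the less accessible calls went from 5954 to 6171 without WT1, 6923 without WT3 and 5365 without WT4. They were 3809 without CF1, 3901 without CF2 and 4358 without WT2.

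The members called more accessible in CF with the smallest adjusted p had a lower signal in every WT library than in any CF library. The mean log2 signal over the WT libraries of these 5 was 2.94 to 4.14, under the limit of 5, so they became members only through the CF libraries where they were high, and their p-values are given as a description. GL897062:408499-409323 had signals of 187, 261 and 246 in CF1 to CF3 and of 2.93, 2.66, 24.6 and 8.38 in WT1 to WT4, which gave a log2 fold change of 4.91 ± 0.55 (SE; n = 3 CF and 4 WT; limma adjusted p = 7.79e-06). WT3 was the highest of the WT libraries there. GL896949:6209931-6211053 had 459, 429 and 413 in CF and 30.8, 8.88, 3.08 and 73.7 in WT, a log2 fold change of 4.63 ± 0.60 (limma adjusted p = 4.37e-05). It was open in WT1 and WT4 relative to the other WT libraries, and CF exceeded both.

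The remaining 3 of these 5 members had log2 fold changes of 3.39 to 3.52. GL896901:20778573-20779234 had 134, 204 and 201 in CF and 29.3, 13.3, 30.8 and 5.03 in WT. GL896957:4802871-4803548 had 205, 176 and 179 in CF and 30.8, 24.9, 3.08 and 20.1 in WT. In GL896910:7570388-7571242 the values were 147, 120 and 121 in CF and 8.80, 25.8, 3.08 and 15.1 in WT. In all 3 the groups did not overlap.

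The 4 members called less accessible had high signal in 2 or 3 WT libraries. GL896912:9042235-9042898 fell by 3.14 ± 0.51 on the log2 scale (limma adjusted p = 0.000420), from 80.7, 133, 157 and 26.8 in WT1 to WT4 to 6.27, 11.2 and 8.43 in CF1 to CF3. Its lowest WT library, WT4, was still above every CF library. GL896954:3536404-3537515 fell by 2.33 ± 0.49 (limma adjusted p = 0.00332), from 26.4, 146, 166 and 153 to 14.1, 23.9 and 20.2. WT1 sat just above the CF libraries there, far from the other WT libraries.

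The other 2 were close to the threshold. GL896949:9963368-9964290 fell by 1.74 ± 0.49 (limma adjusted p = 0.0233), from 47.0, 104, 185 and 31.8 to 21.2, 13.4 and 33.7, so that CF3 overlapped WT4. It was no longer called without CF1, CF2, WT2 or WT3. GL896903:18152517-18153104 fell by 1.54 ± 0.49 (limma adjusted p = 0.0460), from 106, 55.1, 135 and 20.1 to 25.1, 21.6 and 17.4, and WT4 lay among the CF values. It stayed called when WT4 was left out and lost the call when any of the other 6 libraries was.

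Peaks, called by the authors in each library separately, gave a second reading of the same libraries, counted as present at an overlap of at least 1 bp. In CF the members had peaks as often as other regions, since 89.0% of members and 89.2% of other regions with a mean of 5 or more had a peak in all 3 CF lists. In WT they had not, with 69 members (6.9%) having a peak in all 4 WT lists against 68.7% of other regions. Members were chosen for a wide WT spread and had lower signal, so fewer WT peaks follow largely from the choice. Of the members, 410 passed the limit on the mean only through the CF libraries, which favours CF peaks. Nothing is therefore read from the difference between WT and CF lists. Most members, 594, had a peak in 3 WT lists, and 26 had a peak in none. The share was lowest in list WT2, where 29.8% of members had a peak against 74.6% of other regions. The other WT lists held a peak in 70.1% to 87.1% of members.

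The peak lists also showed, over the members, that the numbers of the lists and of the matrix columns disagree. Of the 478 members closed in matrix column WT3 alone, 95.8% had a peak in list WT3 and 1.05% had one in list WT2. Of the 114 closed in column WT4 alone, 86.8% had a peak in list WT4 and 11.4% in list WT1, and of the 111 closed in column WT1 alone, 86.5% had a peak in list WT1 and 6.31% in list WT4. Of the 33 closed in column WT2 alone, 72.7% had a peak in list WT2 and 30.3% in list WT3. For each WT column, a list of another number most often lacked the peaks, so that no statement here ties a pattern to a donor number.

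**Figure D5:**
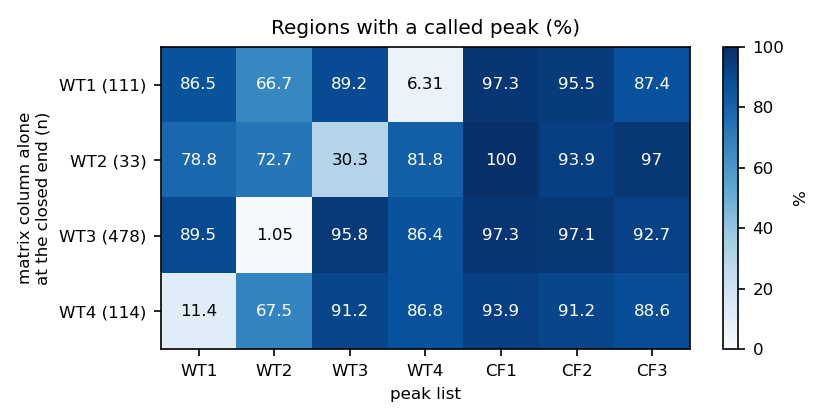
Share of members (%) with a peak in each of the 7 peak lists (columns), for the 4 groups of members closed in a single matrix column (rows, with the number of members). The pale cells, 6.31%, 30.3%, 1.05% and 11.4%, lie off the cells in which column and list carry the same number, and the CF lists hold a peak in 87.4% to 100% of members.

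The members, 1000 of the 38481 regions with a mean of 5 or more, lay on 314 of the 1131 scaffolds that held such a region. Runs of at least 2 members with at most 50 kb between neighbours took in 85 members (8.5%), in 42 runs, of which 41 had 2 members and 1 had 3. In 13 of the 42 runs all members had the same pattern, and in 9 of these it was WT3 closed alone. That pattern held 47.8% of all members, so unrelated members would often share it. How many runs as many other regions would form was not tested, so nothing is read from these counts. In 13 cases 2 members stood next to each other in the matrix.

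The run of 3 lay on GL897152, from 1481014 to 1496996, and took in 3 of the 4 regions there. All 3 were closed in WT3 alone, with CF at the open end. The first, GL897152:1481014-1481634, had signals of 106, 34.6, 9.23 and 38.5 in WT1 to WT4, and CF signals of 51.0, 40.3 and 53.4 lay among the open WT values. The second, GL897152:1494555-1495327, had 32.3, 21.3, 6.15 and 38.5 in WT and 56.5, 96.2 and 72.5 in CF, above all WT libraries. The third, GL897152:1496449-1496996, had 32.3, 61.3, 12.3 and 70.4 in WT and 60.4, 59.7 and 62.4 in CF.

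Runs of 2 joined like and unlike patterns. On AEYP01109824 a pair within 6.47 kb was open in WT1 and WT3, with 63.1 and 108 at AEYP01109824:314-664 against 22.2 and 20.1 in WT2 and WT4. The CF signals of that region, 27.4, 16.4 and 21.3, sat at the closed end. On GL896904 a pair 48.3 kb in extent was closed in WT1 alone, with 5.87 and 13.2 in WT1 and CF at the open end in both regions. On GL896902 the pair within 35.7 kb had different low libraries, since GL896902:29930792-29931500 had 6.22 in WT2 and GL896902:29965738-29966499 had 91.5 there and 20.5 in WT1.

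On GL896898, GL896898:22116708-22117886 and GL896898:22135789-22136614 formed a pair 19.9 kb in extent. The first had 36.7, 14.2, 3.08 and 5.03 in WT1 to WT4 and 164, 113 and 178 in CF. The second had 69.0, 19.5, 6.15 and 31.8 in WT and 89.4, 91.0 and 84.3 in CF. In both, WT1 was the highest WT library, WT3 the lowest, and CF lay above all WT libraries.

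Neighbouring regions with a mean of 5 or more, at most 50 kb apart, were compared by their lowest and highest WT library. Among 25912 pairs without a member, both regions had the same lowest WT library in 31.3% and the same highest in 32.0%, and the 4 WT values had a median correlation of 0.19. Among 1235 pairs with 1 member these values were 34.8%, 32.6% and 0.25. Of 23 pairs of members, 11 (47.8%) had the same lowest library and 21.7% the same highest, with a median correlation of 0.10. WT3 was the lowest WT library in 55.7% of members and 24.8% of other regions, so unrelated members share their lowest library more often. Each correlation rests on 4 libraries that share their depth across all regions.

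By scaffold, the members were most numerous on GL896903 with 21, followed by GL896898 with 17, GL896906 with 16, and GL896899 and GL896900 with 15 each. These are scaffolds with many regions, and members made up 2.28% to 3.84% of their regions with a mean of 5 or more. Among scaffolds with at least 40 such regions, the share was highest on GL897025, at 9.09%, 6 of 66 regions. It was 8.93% on GL896961, 8.89% on GL896942, 8.70% on GL897059 and 8.33% on GL896985, each with 5 to 8 members. Scaffolds with AEYP names held 1.90% of members and 1.06% of other regions, and the scaffold with most reads, GL897838, held 0 members.

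Across the members, the libraries of CF ordered the regions alike and those of WT did not. Pearson's r of log2 signal over the 1000 members was 0.74 to 0.81 between CF libraries, −0.30 to 0.40 between WT libraries and −0.23 to 0.18 between CF and WT libraries. Over all 38481 regions the ranges were 0.92 to 0.94, 0.78 to 0.88 and 0.70 to 0.77. The highest value between WT libraries over the members was for WT2 with WT4 and the lowest for WT3 with WT4. Regions are not independent replicates, and choosing regions where WT libraries differ lowers their correlation by construction.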

How the data were processed

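Reads, paired and 150 bp long, were trimmed (Trimmomatic), aligned to MusPutFur1.0 (Bowtie 2) and used for peak calling in each library (MACS2) by the authors, who then built regions with DiffBind. Libraries were amplified for 12 PCR cycles. How duplicates and the transposase offset were treated is not given in the sources used here. A normalized signal fills the deposited matrix. For 100% of values it was a whole number of reads, within 0.001 reads, times one factor per library. In the deposited peak lists the fold enrichment (a ratio) was not used, and peaks were matched by position with bedtools 2.31.1.

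The members, lists and rules for named regions were chosen with earlier results of these data known. Named were the 10 members with the highest SD, the top member of each pattern, up to 5 called in each direction by adjusted p, the 5 runs and the scaffolds with most members or the highest share (among at least 40 regions), and the regions beside the limit. The rule's mean was read as the mean of log2 values. Runs of equal size were taken in the order of the matrix by scaffold name. In R 4.3.3, limma 3.58.1 was fitted with a mean trend to log2(signal + 1) of all 95129 regions, with Benjamini-Hochberg adjustment. At few reads the log scale and the count tests can differ in either direction. The log2 fold change of GL896934:6126203-6126881 was 0.87 with limma, 0.06 with DESeq2 and 0.03 with edgeR. That of GL897062:408499-409323 was 4.91, 5.01 and 5.05. Alternatives used the recovered reads in DESeq2 1.42.0 and edgeR 4.0.16, other scalings, pseudocounts and limits, and left-out libraries. Only the main limma fit was tested on simulated data. The simulation used the same dispersion for all regions, so it says nothing on regions as variable as the members. Positions are counted from 1.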

Additional observations from a re-analysis of the deposited data

Results flagged for a closer look

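As a description, since the same 4 WT values chose the members, 7 of the 32 named members held a WT library that stood apart from the other 3 by a gap larger than Dixon's 95% critical value for 4 samples. Chance flags about 1 in 20 such groups, and the choice of members for a wide WT spread favours such gaps. They occurred in 16.9% of all members and 5.33% of the other regions with a mean of 5 or more. In 5 of them WT3 was low, at a log2 signal of 2.03 (1 read), namely GL896918:435966-437060 (other WT libraries 6.19 to 6.80), GL896947:10147166-10147944 (6.35 to 6.45), GL896901:27688597-27689294 (6.22 to 6.52), GL896920:6521254-6522091 (5.83 to 6.61) and GL897039:4771666-4772659 (5.93 to 6.52). In the other 2 WT1 was low, at 2.43 in GL896925:14815721-14816519 (3 reads, others 6.41 to 6.99) and at 4.78 in GL896954:3536404-3537515 (18 reads, others 7.20 to 7.38). The CF libraries lay toward the open end in the first 6, at a mean position of 0.76 to 0.98, and beyond the closed end in GL896954, at −0.18.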

How the results depend on the processing

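Which regions were members depended most on the limit on the mean and on WT3. Of the 1000 members, 617 stayed with a pseudocount of 5, 80 with no limit on the mean, 98 with a limit of 6, 590 with the limit on the WT mean alone, and 407 to 848 when a WT library was left out (407 without WT3). CF was at the open end in 471 regions with no limit and 563 with a limit of 6, against 790. The count was 495 with the limit on the WT mean, 912 with scaling by library size, and 304 in the members kept without WT3. A stricter cut-off on the position, the counterpart of the 0.25 given below for the closed end, left 572. Leaving out a WT or CF library gave 645 to 822. CF was at the closed end in 155 with no limit, 159 with a limit of 6, 269 with the limit on the WT mean, 20 with scaling by library size, 21 at a position of 0.25 or less in place of 0.5, 32 of the members kept without WT3, and 76 to 133 with a library left out, against 72. Members in runs numbered 42 with no limit, 37 at 20 kb and 132 at 100 kb between members, against 85, and 79 to 96 with a WT library left out. The ranking by variance beyond counting error and the count in members kept without WT3 were added after seeing the data.

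Calls more accessible in CF numbered 219 with arrayWeights, 200 with scaling by library size, 66 at a log2 fold change past 2, and 49 to 156 with a library left out, against 107. The count test of edgeR on the recovered reads called 131, and 5143 more and 6948 less accessible over all regions. Calls less accessible numbered 21 with DESeq2, 23 with edgeR, 33 with arrayWeights, 2 with scaling by library size, 7 with a pseudocount of 5, 2 past a log2 fold change of 2, and 2 to 42 with a library left out, against 4. With a replicate block there were 280 more and 23 less accessible, beside 5002 and 6325 over all regions. The numbers are not known to pair libraries. The deviations of same-numbered libraries correlated at 0.17, 0.19 and −0.04. Over the 32 named members and their 512 alternatives, 428 kept their direction and side of the threshold, 29 uncalled differences changed sign by less than their SE, 29 were called only under the alternative, 14 lost the call, and 11 uncalled differences changed sign by more than their SE. In GL897039:4771666-4772659 the log2 fold change of 0.04 turned to a called −1.02 without WT3, and over all left-out libraries it ran from −1.02 to 0.47. WT3 gave a median of 5 reads per member and of 28 in other regions with a mean of 5 or more.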
